A study of Homo sapiens with 3 samples.

Results

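The ERBB, KIT, MET and PDGF receptors are a set of 8 receptor tyrosine kinase genes (EGFR, ERBB2, ERBB3, ERBB4, KIT, MET, PDGFRA and PDGFRB), described here with 2 ligand genes, NRG1 and KITLG. The members were all probes annotated with 1 of these 10 symbols. They came to 18 of 47289 probes, and to 10 of 16225 genes with a symbol. RNA came from 3 undifferentiated human embryonic stem (ES) cell lines, ES01, BG03 and H9, which form 1 group. Each was grown on irradiated mouse embryonic fibroblast (MEF) feeders in DMEM/F12 medium with knockout serum replacement (KSR), β-mercaptoethanol (BME), non-essential amino acids (NEAA), L-glutamine and FGF2, and read on 1 Illumina array per line with Cy3 label. The labels report no genetic change or drug treatment in any line. The mouse ES and epiblast cells of the study are not analysed here, so each gene was compared with the background of the arrays and between the 3 lines.

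Receptor tyrosine kinases span the cell membrane. A ligand outside brings receptors together as pairs, whose kinase domains phosphorylate each other and recruit adaptors of the RAS-ERK and PI3K-AKT pathways. ERBB2 has no known soluble ligand of its own and ERBB3 has little kinase activity, so the pair signals as a heterodimer when a neuregulin such as NRG1 binds ERBB3. KIT binds KIT ligand (KITLG, stem cell factor), MET binds hepatocyte growth factor (HGF), and the PDGF receptors bind dimers of the PDGF chains. In human ES cell culture, ERBB2 and ERBB3 are known as receptors for added neuregulin, and KIT is a known surface protein of these cells.

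Intensities are quantile-normalized array units, given in the order ES01, BG03 and H9. A probe counted as above background on an array when it was brighter than the 95th percentile of 214 olfactory receptor probes, which was 13.3 units in ES01, 12.6 in BG03 and 11.2 in H9. The level of each probe over this threshold was tested across the 3 lines with limma, on the log2 scale after adding 32 units (one-sided, Benjamini-Hochberg adjusted over all 47289 probes). The SE given with this level is limma's moderated SE, which draws on the spread of all probes. It is not the SE of the 3 values alone. The lines were separate cultures with 1 array each, and their SD mixes differences of line, culture and array. Brightness depends on the probe as well as on the transcript. Words such as dim and brightest, and summed intensities, therefore describe probe signal and do not rank the expression of genes.

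Marker genes were counted against the 58.1% of all 16225 genes that passed the limma test. Of 9 measured ES cell markers, 8 passed, and the one that did not was SOX2, read by 1 probe at background. Primitive endoderm markers passed for 5 of 7 measured genes, fibroblast markers for 6 of 12, trophoblast markers for 2 of 8, neural markers for 2 of 7, and mesoderm and blood markers for 1 of 8. The primitive endoderm share was also above that of all genes, so the counts alone do not single out ES cells. The arrays are bulk measurements, so fewer cells of a type and less RNA per cell cannot be told apart in any value below. Feeder RNA of mouse origin could also bind human probes, and this was not tested.

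ERBB2, ERBB3 and KIT were well above background in every line, PDGFRB and NRG1 were dimmer but above it in every line, PDGFRA was above it in BG03 and H9, and EGFR, ERBB4, MET and KITLG were above it in none. By the limma test, 5 of the 10 genes passed (adjusted p under the threshold of 0.05), against 58.1% of all genes, a share close to that of the set. The same 5 genes lay above the threshold in all 3 lines, as did 59.8% of all genes. With PDGFRA, 6 of the 10 passed the threshold in some line, against 67.8% of all genes, and 4 passed it in none, against 32.2%. Counted by probe, 5 of the 18 passed the test, against 26.2% of all 47289 probes. Of those, 28821 have no gene symbol, so the 2 shares are not like for like. Among probes with a symbol, 57.3% passed for genes with a single form, 26.6% for 1 of several forms and 60.9% for all forms. The 18 probes held 7, 9 and 2 of these kinds. At the 99th percentile of the olfactory receptor probes (21.4, 30.9 and 25.2 units), 3 of the 10 passed the test, namely ERBB2, ERBB3 and KIT, against 52.1% of all genes.

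Promoter sequence is shown for KIT, a receptor far above background, for its ligand gene KITLG, which was at background, and for PDGFRB, which was dim but above background, so that the start sites of 1 gene of each kind can be read. The 3 genes were chosen after their levels and sequences were seen, and nothing is drawn from them about a relation of level and CG content. The windows run from 250 bases before to 50 bases after the RefSeq start on build GRCh38.p14, and capitals mark the dinucleotide CG, which reads the same on both strands. The KIT window lies at chr4:54657707-54658006 on the plus strand, KITLG at chr12:88580422-88580721 on the minus strand and PDGFRB at chr5:150155796-150156095 on the minus strand.
KIT: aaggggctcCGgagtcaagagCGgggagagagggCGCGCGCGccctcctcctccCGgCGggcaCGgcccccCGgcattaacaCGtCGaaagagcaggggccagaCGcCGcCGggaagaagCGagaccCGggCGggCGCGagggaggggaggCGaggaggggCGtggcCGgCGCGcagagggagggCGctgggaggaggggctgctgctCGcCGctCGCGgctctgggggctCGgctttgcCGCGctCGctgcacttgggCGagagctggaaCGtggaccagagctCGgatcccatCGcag
KITLG: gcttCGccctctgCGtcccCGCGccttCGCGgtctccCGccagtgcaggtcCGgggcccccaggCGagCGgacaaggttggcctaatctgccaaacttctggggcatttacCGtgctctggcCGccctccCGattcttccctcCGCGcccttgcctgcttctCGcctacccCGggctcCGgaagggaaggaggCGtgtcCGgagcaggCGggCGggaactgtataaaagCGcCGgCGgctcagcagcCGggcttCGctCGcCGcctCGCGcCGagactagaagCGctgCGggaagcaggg
PDGFRB: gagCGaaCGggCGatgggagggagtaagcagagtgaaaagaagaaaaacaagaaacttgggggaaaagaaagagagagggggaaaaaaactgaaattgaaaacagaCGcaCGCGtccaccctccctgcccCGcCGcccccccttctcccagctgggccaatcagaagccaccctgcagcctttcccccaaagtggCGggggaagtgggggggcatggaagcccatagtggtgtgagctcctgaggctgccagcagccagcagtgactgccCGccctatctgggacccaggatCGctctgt
KIT held 38 CG dinucleotides, KITLG 34 and PDGFRB 11. Over all 35116 promoter windows of the same length the median was 14, 96.0% held at least 1 and 41.2% held at least 20. Among the other members with a window, ERBB2 held 24, ERBB4 19, MET 30, EGFR 33 and 1 at its 2 annotated starts, and PDGFRA 8 and 32. ERBB3 and NRG1 were not analysed here for promoter sequence. A count of CG is a description and says nothing about methylation, which was not measured here.

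**Figure D1:**
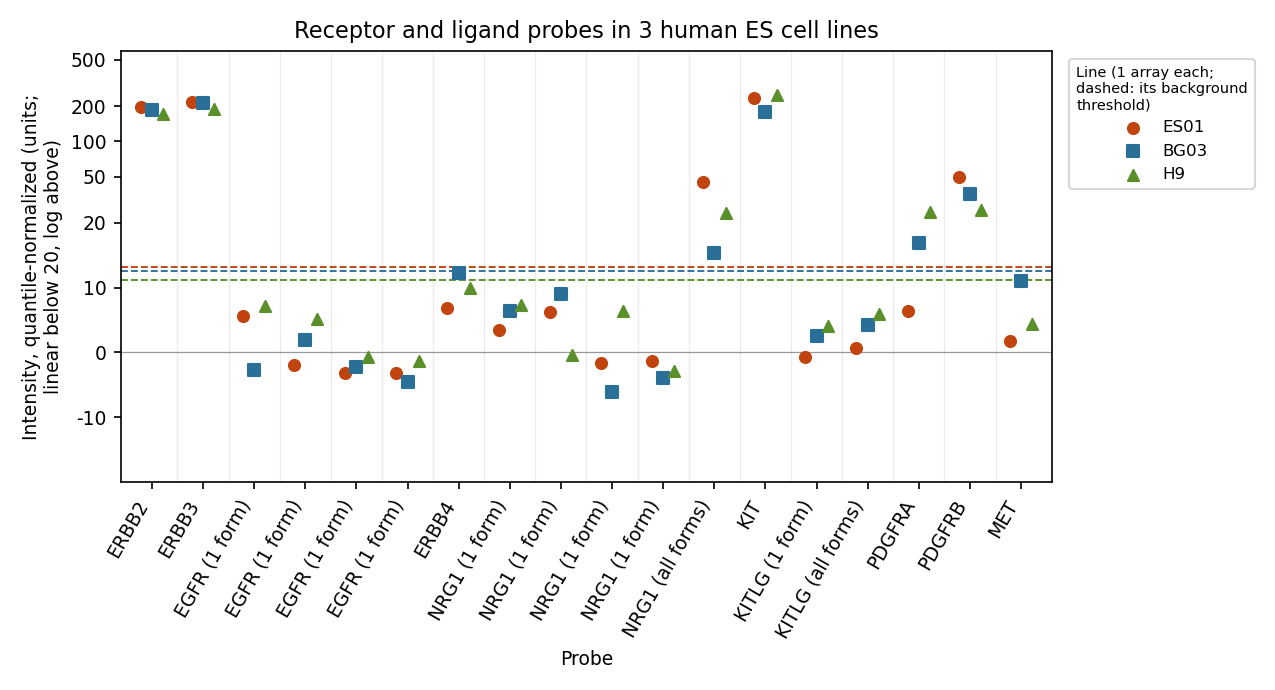
Quantile-normalized intensity of the 18 probes of the receptor and ligand genes (y axis, array units, linear below 20 and logarithmic above) in ES01, BG03 and H9, 1 point per array. Dashed lines are the background thresholds of the 3 arrays, 13.3, 12.6 and 11.2 units. ERBB2, ERBB3 and KIT lie between 172 and 252 units in every line, and every probe for 1 transcript form of EGFR, NRG1 or KITLG lies under the lines.

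Among the ERBB receptors, ERBB2 and ERBB3 were present at like levels in all lines and the other 2 receptors were not above background. ERBB2, the ligandless partner kinase encoded on chromosome 17 (39688094 to 39728658, build GRCh38.p14), measured 197 units in ES01, 185 in BG03 and 172 in H9. These values were 14.9, 14.6 and 15.3 times the background threshold of each array. The log2 level over the threshold was 2.28 ± 0.06 (moderated SE, n = 3, limma adjusted p = 5.96e-09). ERBB3, the neuregulin-binding partner on chromosome 12, measured 218 units in ES01, 216 in BG03 and 191 in H9. Its level over the threshold was 2.44 ± 0.07 log2 (moderated SE, n = 3, limma adjusted p = 4.19e-09).

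The 3 lines lay close together for both genes. The SD over lines was 0.10 log2 for ERBB2 and 0.11 log2 for ERBB3, against a median of 0.18 and 0.19 log2 for the 500 genes nearest in level. ES01 minus H9 was 0.20 log2 for ERBB2 and 0.19 log2 for ERBB3. These differences turned to -0.11 and -0.12 log2 when array medians were set equal, so no order of the lines is given for them. The deposited medians were 4.4 units in ES01, 3.5 in BG03 and 3.5 in H9, all under background. Setting them equal moved the median of all genes from 0.01 to -0.27 log2 for ES01 minus H9. In units, ES01 minus H9 was 25.6 for ERBB2, against a bead error of 11.6, which is the standard error expected from the spread between beads of bead types at the same brightness rank. Bead values are on the scanner scale, which may differ from that of the table by a scaling that is not stated.

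EGFR, the receptor of EGF and its relatives, was read by 4 probes, each made for 1 transcript form, and by no probe common to all forms. The brightest of them measured 5.63 units in ES01, -2.70 in BG03 and 7.20 in H9. The probe for the full-length form measured -1.97 units in ES01, 1.93 in BG03 and 5.13 in H9. All 12 readings lay under the threshold of their array.

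Probes for 1 transcript form were dim on these arrays in general: 26.6% of 2354 such probes with a gene symbol passed the limma test, against 60.9% of 1710 probes that read all forms and 57.3% of 14404 probes for genes with a single form. A reading at background from such a probe therefore bears on that form and does not show that the gene is silent. ERBB4, the other neuregulin receptor with an active kinase, was read by 1 probe at 6.80 units in ES01, 12.3 in BG03 and 9.97 in H9. The BG03 value was 0.977 times the threshold of that array and the H9 value 0.886 times, so ERBB4 lay just under background in both lines.

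NRG1, encoding a neuregulin ligand of ERBB3 and ERBB4, gave a signal with the probe that reads all of its forms. This probe measured 45.2 units in ES01, 15.4 in BG03 and 24.3 in H9, or 3.41, 1.22 and 2.16 times the threshold. ES01 was the highest, and BG03 was only just above background. The mean level was 28.3 ± 15.3 units (SD, n = 3). The log2 level over the threshold was 0.41 ± 0.12 (moderated SE, n = 3, limma adjusted p = 0.0188). This call rests on single lines: without H9 the adjusted p was 0.051 and without ES01 it was 0.0813 (limma), and the call also ended at the 99th percentile threshold (adjusted p = 1) and with 64 units added before log2 (adjusted p = 0.059).

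The other 4 NRG1 probes, each for 1 form, read between -6.03 and 9.07 units and none was above background in any line. The signal was seen with the all-forms probe alone. When the 5 probes were averaged, NRG1 fell under the threshold (log2 level -0.18). ES01 over BG03 was 2.94-fold at the all-forms probe, or 29.8 units against a bead error of 5.20. At the 99th percentile threshold, where BG03 was no longer above background, it was 0.55 log2, as a bound.

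KIT, the stem cell factor receptor on chromosome 4 (54657957 to 54740715), was above background in every line, whereas its ligand gene was not. KIT measured 237 units in ES01, 179 in BG03 and 252 in H9, at least 14.1 times the threshold of each array. Its level over the threshold was 2.51 ± 0.10 log2 (moderated SE, n = 3, limma adjusted p = 4.35e-08). BG03 was the lowest of the lines: BG03 minus H9 was -0.50 log2, or -73.7 units against a bead error of 12.7. ES01 minus BG03 was 0.41 log2 and became 0.07 log2 when array medians were set equal. That setting also moved the median of all genes from -0.01 to -0.34 log2 in this pair. The SD over lines was 0.27 log2, against 0.18 log2 for genes of like level.

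KITLG was read by a probe common to its forms, at 0.700 units in ES01, 4.23 in BG03 and 5.97 in H9. A second probe, for 1 form, measured -0.633 units in ES01, 2.47 in BG03 and 4.07 in H9. Both lay under the threshold in all 3 lines, and the probe for all forms reached at most 0.530 times the threshold, in H9.

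The PDGF receptor genes were both dim, and ES01 read higher than H9 in PDGFRB and lower in PDGFRA. Against bead error, the place of BG03 is less sure. BG03 minus H9 was 9.8 units for PDGFRB (bead error 5.18) and -7.8 units for PDGFRA (bead error 4.8). Bead error holds no variation of array, culture or scaling, so it does not show a difference of lines in any pair. PDGFRB, a receptor known from mesenchymal cells and encoded on chromosome 5 (150113839 to 150155845), measured 50.03 units in ES01, 35.5 in BG03 and 25.7 in H9. All 3 were above background, by 3.77, 2.81 and 2.28 times. The level over the threshold was 0.62 ± 0.09 log2 (moderated SE, n = 3, limma adjusted p = 3.9e-04). At the 99th percentile threshold the call ended (limma adjusted p = 0.0814). ES01 over H9 was 1.95-fold, or 24.4 units against a bead error of 5.64. As log2 this was 0.96, and it was 0.64 when array medians were set equal.

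PDGFRA, known from mesenchyme and from primitive endoderm of the early embryo, lies near KIT on chromosome 4 (54229293 to 54298245). It measured 6.37 units in ES01, which was under background, 16.9 in BG03 and 24.7 in H9. The level over the threshold did not pass the test (0.09 ± 0.11 log2, moderated SE, n = 3, limma adjusted p = 0.742). ES01 decided this: without ES01 the level was 0.26 log2 (limma adjusted p = 0.0457), and without H9 it was -0.050 log2 and did not pass. H9 was at least 1.86-fold higher than ES01, taking the threshold for the ES01 value. In units, ES01 minus H9 was -18.3 against a bead error of 4.42.

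Markers of other cell types were read beside the PDGF receptors. Of the 12 fibroblast markers, 6 were above background in all lines (all genes: 59.8%), 3 in some and COL3A1, POSTN and PRRX1 in none. Their summed intensity was 3755 units in ES01, 2838 in BG03 and 3654 in H9. Most of each sum came from VIM and THY1 (THY1 824, 851 and 752 units), so it is not a measure of fibroblast content. Of the 9 above background in some line, 2 were highest in ES01, as PDGFRB was, 4 in BG03 and 3 in H9. The collagen genes COL1A1 (43.2, 22 and 18.6 units in ES01, BG03 and H9) and COL1A2 (582, 229 and 310 units) were highest in ES01. LUM (10.1, 48.9 and 10.1 units), THY1, TWIST2 and S100A4 (45.1, 68.9 and 50.8 units) were highest in BG03, and VIM (2104, 1476 and 2346 units), DCN (26.4, -0.600 and 30.5 units) and FAP in H9. Of the 7 measured primitive endoderm markers, 6 passed the threshold in every line (all genes: 59.8%) and SOX7 passed it in no line. Their summed intensity was 1161 units in ES01, 1014 in BG03 and 918 in H9. Of these 6, 4 were highest in ES01, where PDGFRA was lowest: GATA6 (366, 314 and 292 units), AFP (383, 322 and 148 units), GATA4 and SOX17. The other 2 were highest in H9, as PDGFRA was: TTR (21.0, 12.8 and 81.5 units) and FOXA2 (195, 185 and 222 units). For GATA6, AFP, GATA4 and SOX17, ES01 minus BG03 was only 0.10 to 0.25 log2. Equal array medians moved the median of all genes to -0.34 log2 in this pair, so the order of ES01 and BG03 is not sure for them. The part of other cells in the PDGFRB and PDGFRA signals was not tested.

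MET, the HGF receptor on chromosome 7 (116672196 to 116798377), was not above background. Its probe measured 1.73 units in ES01, 10.97 in BG03 and 4.37 in H9. BG03 was the highest, at 0.869 times the threshold. MET is read by 1 probe, which was not checked for reading its transcript, so absence is not shown; the same holds for ERBB4 and for every gene given as not above background.

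**Figure D2:**
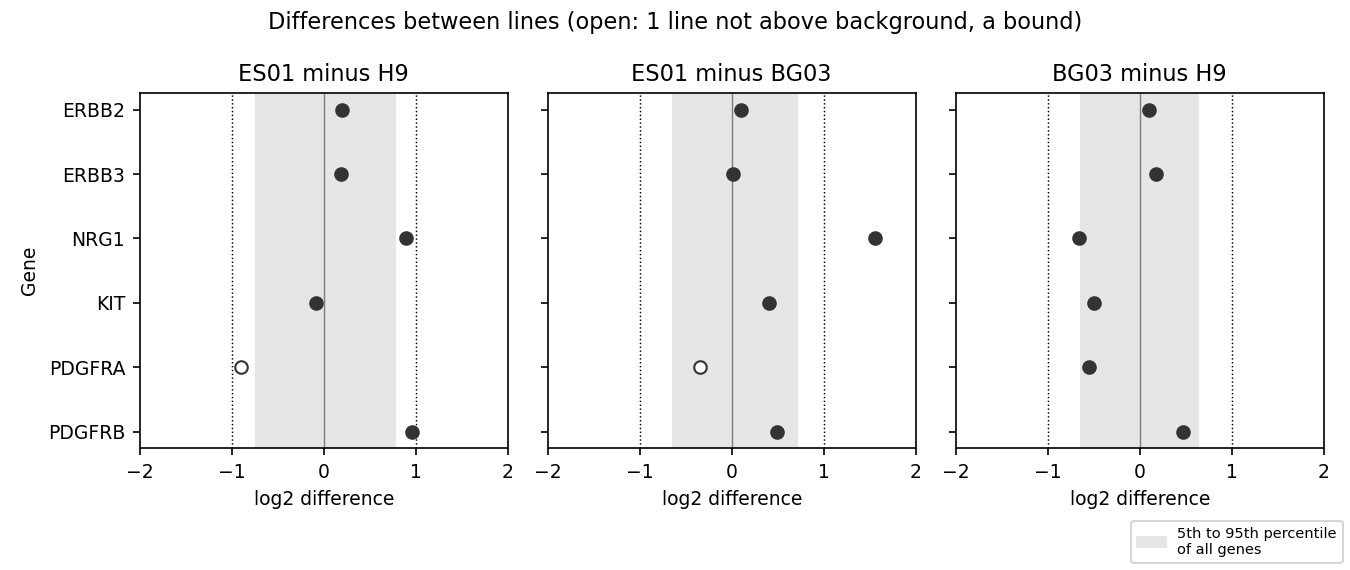
log2 differences (x axis) of the 6 genes that passed the background threshold in some line, for ES01 minus H9, ES01 minus BG03 and BG03 minus H9, with grey bands from the 5th to the 95th percentile of all 10997 genes and dotted lines at 2-fold. Open points take the background threshold for a line that was not above it. NRG1 passes 2-fold between ES01 and BG03, and PDGFRB and NRG1 lie just short of it between ES01 and H9.

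Between single lines, NRG1 was the one gene of the 6 above background anywhere whose value reached 2-fold in a pair, and differences were described by size because no line has a second array. NRG1 was 2.94-fold higher in ES01 than in BG03, a pair in which 3.74% of 10997 genes differed at least 2-fold. Between BG03 and H9, none of the 6 differences reached 2-fold (3.23% of all genes did). Between ES01 and H9, where 5.10% of all genes did, the 5 differences measured on both sides stayed under 2-fold and that of PDGFRA was a lower bound of 1.86-fold. In ES01 against H9, PDGFRB (0.96 log2) and NRG1 (0.89 log2) were higher and PDGFRA was lower (-0.90 log2). With equal array medians, which moved the median of all genes to -0.27 log2, these were 0.64, 0.58 and -1.19 log2. Setting values under 50 units to 50 gave 0.001, 0 and 0 log2. With the second background set, of taste receptor and other genes, the PDGFRA bound was -1.24 log2, past 2-fold. The median absolute log2 difference of the 6 genes was 0.55 between ES01 and H9, 0.38 between ES01 and BG03 and 0.48 between BG03 and H9. For all 10997 genes that passed the threshold somewhere it was 0.24, 0.21 and 0.19. The 0.24 equals the difference of the ES01 and H9 thresholds, which a gene under background in both lines takes, as LUM did. These genes were not matched to the 6 on level, so the 2 sets of medians are not like for like.

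The larger differences lay in the dim genes. The SD over lines was 0.78 log2 for NRG1, 0.48 log2 for PDGFRB and 0.45 log2 for PDGFRA, against medians of 0.35, 0.30 and 0.37 log2 for genes of like level. Values under the threshold were set to it for every SD. The SD of PDGFRA, which was under background in ES01, is therefore a lower bound. Over all 10997 genes the median SD was 0.19 log2 and the 95th percentile 0.62 log2. For ERBB2 and ERBB3 the SD was under the median of genes of like level, and for the other 4 it was above it.

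**Figure D3:**
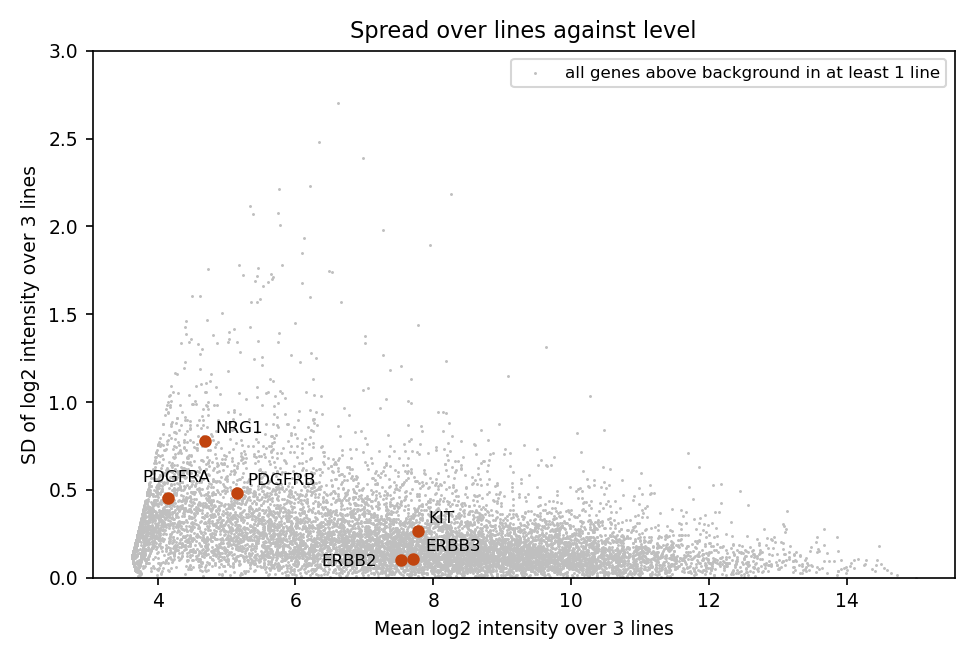
SD of log2 intensity over the 3 lines (y axis) against the mean log2 intensity (x axis) for all 10997 genes that passed the threshold in some line (grey) and the 6 receptor and ligand genes among them (red). Values under the threshold were set to it, as for PDGFRA in ES01. ERBB2 and ERBB3 lie at SDs of 0.10 and 0.11, and NRG1 is the highest of the 6 at 0.78.

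Other genes of the pathways were read from lists of ligands, related receptors, activating proteases, adaptors, kinases and inhibitors, 84 of 103 listed genes being measured under their symbols. Of these 84, 63 passed the limma test, against 58.1% of all genes. By role, the test was passed by 2 of 7 measured ERBB ligands, 5 of 9 PDGF, HGF and class III receptor ligands and 0 of 3 related receptors. It was passed by 11 of 12 genes of ligand shedding and activation and 17 of 20 adaptors and proximal effectors. Of the rest, 6 of 9 PI3K and AKT genes and 5 of 6 RAS and ERK genes passed. So did 17 of 18 genes in the list of receptor brakes, ubiquitin ligases and chaperones.

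Of the ERBB ligands, EGF and HBEGF were above background in all lines. EGF, a ligand of EGFR, measured 54.8 units in ES01, 34.5 in BG03 and 40.8 in H9 (limma adjusted p = 5.86e-05). HBEGF, a ligand of EGFR and ERBB4, measured 49.9 units in ES01, 38.0 in BG03 and 27.7 in H9 (limma adjusted p = 1.84e-04). The probes of EGFR and ERBB4 were at background on these arrays, as given above. TGFA was above background in ES01 and H9 and did not pass the test (adjusted p = 0.318), and EREG, BTC, NRG3 and NRG4 stayed under the threshold on every array.

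Of the 4 PDGF ligand genes, PDGFA, PDGFC and PDGFD passed the test and PDGFB did not. PDGFA, the chain that binds PDGFRA, measured 294 units in ES01, 216 in BG03 and 288 in H9 (limma adjusted p = 1.82e-08). PDGFC measured 73.3 units in ES01, 41.0 in BG03 and 38.7 in H9, and PDGFD, a ligand of PDGFRB, 40.4, 30.6 and 53.8 units. PDGFB, which binds both receptors, was not above background at either of its 2 probes.

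The ligand of MET was at background along with its receptor. HGF measured -3.83 units in ES01, 0.300 in BG03 and 0.700 in H9. The HGF-related ligand MST1 measured 144 units in ES01, 147 in BG03 and 161 in H9, and its receptor MST1R was not above background. MST1 has near-identical copies in the genome, and whether the probe separates them was not tested. CSF1R and FLT3, the class III receptors related to KIT, were not above background either. FLT3LG, the ligand of FLT3, was above the threshold in all lines at 15.2 units in ES01, 16.9 in BG03 and 22.5 in H9 but did not pass the test (limma adjusted p = 0.0971), and CSF1 was under it at both of its probes. IL34, a ligand of CSF1R, measured 59.5 units in ES01, 75.2 in BG03 and 35.1 in H9 and was 2.14-fold higher in BG03 than in H9, a difference of 1.10 log2 that became 0.59 with values under 50 units set to 50.

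**Figure D4:**
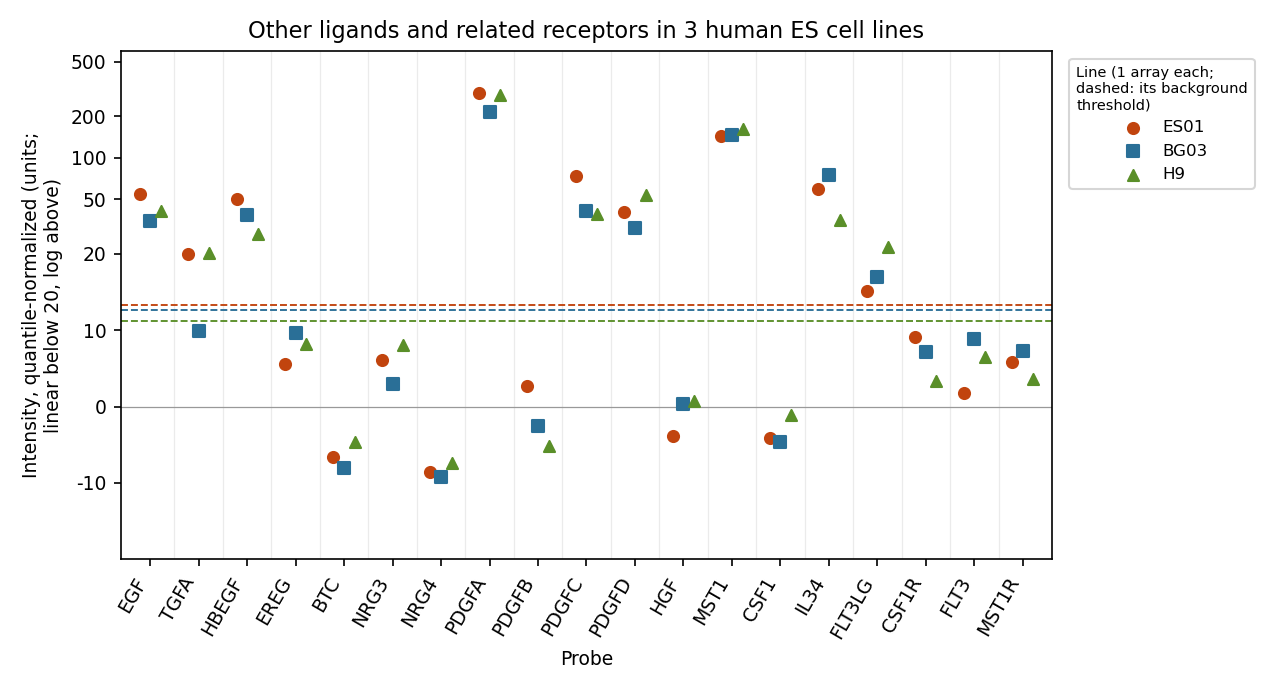
Quantile-normalized intensity (y axis, array units, linear below 20 and logarithmic above) of the brightest probe of 19 other ligand and receptor genes in ES01, BG03 and H9, with the background thresholds of the 3 arrays as dashed lines. PDGFA and MST1 are above 100 units in every line, and HGF, PDGFB, CSF1R, FLT3 and MST1R lie under the lines.

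Of the 12 measured genes of ligand shedding and activation, 11 were above background in all lines. The brightest were BSG (1569, 1023 and 1275 units), the protease inhibitor SPINT2 (1474, 1598 and 1564 units) and PLAU (594, 427 and 421 units). HGFAC, the protease that activates HGF, was not above background. The inhibitors SPINT1 and SPINT2 and the membrane protease ST14, which also act on HGF activation, passed the test. The sheddase ADAM10, which can release EGF, measured 88.5 units in ES01, 123 in BG03 and 109 in H9. ADAM12, a related protease that can release HBEGF, measured 15.9 units in ES01, 35.0 in BG03 and 31.6 in H9 and was 2.20-fold lower in ES01 than in BG03 (-1.14 log2). This rests on the brightest of its 3 probes and on dim values: the difference was -0.71 log2 at the 99th percentile threshold and 0 with the 50-unit floor, and the mean of the 3 probes was under background in every line.

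Of the 20 measured adaptors and proximal effectors, which bind or act close to activated receptors, 17 were above background in all lines and 1 in some. The brightest were SHC1, PLCG1 and FYN. SHC1 measured 1616 units in ES01, 1525 in BG03 and 1428 in H9, PLCG1 1561, 1917 and 1782 units and the kinase FYN 1600, 1511 and 1515 units. The genes of this list that differed 2-fold between lines were SHC3, at 75.2 units in ES01, 59.1 in BG03 and 33.4 in H9, and PLCG2, which was not above background in ES01 (12.1 units) and measured 28.3 units in BG03 and 35.1 in H9. For SHC3, ES01 minus H9 was 1.17 log2 as given, 0.85 with equal array medians and 0.59 with the 50-unit floor. The equal medians also moved the median of all genes to -0.27 log2 in this pair. For PLCG2, where ES01 is a bound, ES01 minus H9 was -1.40 log2 and ES01 minus BG03 -1.09 log2, which became -0.71 and -0.53 at the 99th percentile threshold and 0 with the floor. SOS1 was above background in all lines but did not pass the test (adjusted p = 0.0598), and SOS2 and NCK2 were not above background.

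Downstream of the receptors, 7 of 9 measured PI3K and AKT genes were above background in every line, against 59.8% of all genes. So were 5 of 6 measured RAS and ERK genes. In the PI3K and AKT list the brightest were PIK3CD (1001, 914 and 1012 units), INPPL1 (258, 399 and 333 units) and PDPK1 (242, 230.2 and 204 units), and PIK3R3 and AKT2 were above background in no line. In the RAS and ERK list the brightest were MAP2K2 (4309, 4890 and 4568 units), MAP2K1 (939, 935 and 944 units) and MAPK3 (536, 575 and 858 units), and NF1 was above background in no line. None of the 7 and 5 genes that could be compared differed 2-fold between any 2 lines. With 3.23% to 5.10% of all genes doing so in a pair, lists this short are not set apart by it.

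Receptor brakes and chaperones were above background in all lines for all but 1 gene, the ubiquitin ligase CBL, against 59.8% of all genes. The brightest were the chaperones HSP90AB1 (6345, 5651 and 5859 units) and HSP90AA1 (3582, 4076 and 3977 units), which hold ERBB2 and other kinases in a folded state. ERRFI1, an inhibitor of ERBB kinases, measured 790.3 units in ES01, 815 in BG03 and 723 in H9. None of the 17 genes that could be compared differed 2-fold between any 2 lines. Of all genes, 3.23% to 5.10% did in a pair, so a count of 0 in so short a list does not set it apart. The median log2 difference of this list was 0.04 for ES01 minus H9, -0.07 for ES01 minus BG03 and 0.01 for BG03 minus H9, against 0.01, -0.01 and 0.03 for all genes.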

How the data were processed

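The deposited value table gives 1 intensity per probe and array on a linear scale. Background had been subtracted by the authors, since 26.3% to 33.8% of the values are below 0; their software and scaling were not stated in the sources. The deposited bead files, per the file headers, hold 1 green intensity per bead (2089034 to 2102778 beads per array, a median of 42 per bead type); no table used here links bead codes to genes, so beads gave technical error only, from 500 bead types around the brightness rank of each probe, without beads farther than 3 median absolute deviations from the median of their type. The number of arrays limits the precision.

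Probes were named through the platform annotation: 18468 have 1 symbol, 0 several and 28821 none; 18451 were found by gene ID in the RefSeq table (GRCh38.p14), which gave gene positions. RefSeq also gave the promoter sequences. The 4 bacterial control probes were left out. Quantile normalization used limma 3.58.1 (R 4.3.3). Each gene was read from its brightest probe. The test was limma's moderated test of log2(intensity + 32) minus the same transform of the array's threshold, tested on simulated data; the offset was set after the lowest deposited values (-16.4 to -15.7 units) were seen. For differences between lines and SDs over lines, values under the threshold were set to it, and genes above it in at least 1 line were used. The limit for differences was 2-fold. Figures used Python 3.11.15 with matplotlib 3.10.9. Illumina's probe names mark probes for a single form, for 1 of several forms or for all forms. The named genes were all members, the ligands and related receptors, the 3 brightest genes of each pathway list, pathway genes differing at least 2-fold, and some chosen after their values were seen (SPINT1, ST14, HGFAC, ADAM10, SOS1, SOS2, NCK2, PIK3R3, AKT2, NF1 and CBL). The members and lists were chosen with earlier results of these data known.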

Additional observations from a re-analysis of the deposited data

How the results depend on the processing

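ERBB2, ERBB3 and KIT passed the test under all 10 alternatives for background, scaling, offset, probe rule and left-out lines, and EGFR, ERBB4, MET and KITLG passed under none. The count of members that passed, 5 as reported, was 5 with values as deposited, 4 with the mean of probes, 4 with 64 units added, and 3 at the 99th percentile threshold (8451 of 16225 genes, 52.1%), which took out PDGFRB and NRG1; leaving out 1 line gave 4 to 5. The level of PDGFRA over the threshold turned to -0.29 log2 at the 99th percentile and to -0.050 without H9 (0.26 without ES01, past the threshold), and that of NRG1 to -0.18 with the mean of its probes; in these cases the cause was not tested. The count of members differing 2-fold between ES01 and H9, 0 as reported, was 1 when array medians were set equal and 3 at 1.5-fold. It was also 1 with the second background set (103 probes of taste receptor, keratin-associated, cornified envelope and beta-defensin genes). Over all genes, equal medians gave 793 and the second set 599 in this pair, against 561 as reported. Between ES01 and BG03, 1 member differed as reported. The count was 0 at the 99th percentile and 0 with the mean of probes (385 of all genes, against 411 as reported). It was also 0 with a floor of 50 units, which lies above every value of the dim members but 1. Between BG03 and H9, the count of members was 0 as reported and 1 at 1.5-fold. The 2-fold differences of ADAM12, PLCG2, SHC3 and IL34 ended under some of these settings, with the values given beside them. Counts over all genes for ES01 and H9, ES01 and BG03, and BG03 and H9 were 561, 411 and 355 as reported, 226, 165 and 126 with the 50-unit floor, and 1792, 1481 and 1303 at 1.5-fold; at the 99th percentile the ES01 and BG03 count was 262 and the BG03 and H9 count 198. Of 8 trophoblast markers 2 passed as reported, and 1 with equal medians, at the 99th percentile, with 64 units added and without H9 or BG03; of 7 neural markers 2 passed, and 1 with the mean of probes. Equal array medians moved the median of all genes to -0.27 for ES01 minus H9 and -0.34 for ES01 minus BG03. The median SD of the members over lines was 0.36 log2, and 0.27 to 0.38 with 1 line left out. No paired analysis was possible because the lines form 1 group with no second group to pair them with. Dim signal near background limits EGFR, ERBB4, MET, KITLG, NRG1, PDGFRA and PDGFRB.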
